A study of Mus musculus with 4 samples.

Results

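Ribosome biogenesis and RNA polymerase I genes were examined in RNA-seq of reconstituted ovaries (rOvaries), to ask whether the factors that assemble ribosomes followed the mRNAs of the ribosomal proteins themselves. The genes were a named list of 33 nucleolar, rRNA-processing and RNA polymerase I (Pol I) genes out of 54021 gene symbols counted, named for their function. All 33 were in the count table, and all 33 passed the filter on low values.

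The rOvaries formed under the kidney capsule of G2 Terc-/- mice, females of the C57BL/6 background without telomerase, which had lost both of their own ovaries and were about 10 weeks old when they received the grafts. Each graft was an aggregate of primordial germ cells and gonadal somatic cells from fetal ovaries of actin-GFP donors, so graft and host differ in genotype and host cells can grow into the graft. The comparison was between 2 rOvaries of recipients given INK128, an inhibitor of the kinase mTOR, in the drinking water (0.75 μM per g of body weight by the labels and 30 μM in the water by the study's methods, which were not reconciled here, replicates 1 and 2) and 2 rOvaries of recipients without it (controls, replicates 1 and 3), all collected 1 month after grafting. Nothing in the labels ties a library to 1 animal or says whether grafts were pooled, so p-values measure only the spread between these libraries.

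Ribosomes are built in the nucleolus, where Pol I transcribes the precursor rRNA with the factors UBF and TIF-IA, and where small nucleolar RNPs and many assembly factors modify, cut and fold it into the subunits. mTOR is known to promote both steps, raising Pol I transcription and the translation of ribosomal protein mRNAs that begin with a terminal oligopyrimidine (TOP) stretch, and MYC drives many of the same genes. In the ovary, growing oocytes and proliferating granulosa cells are large producers of ribosomes.

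The libraries held 19130209 to 23029089 counts, and 3 counts, the floor used here, corresponded to 0.13 to 0.165 CPM (a gene's share of the library's counts, scaled with TMM factors that correct for composition). The INK128-treated rOvaries resembled each other closely (Pearson r = 0.98 of log2 CPM over 11758 genes), whereas the controls differed (r = 0.806), with a more than 2-fold gap between them for 13.8% of genes. Control replicate 1 held 1021 counts of 4 Y-linked genes, against 0 to 2 in the other libraries, although the donors were described as female, and its 8 Sertoli cell markers summed to 8210 CPM against 1056 to 1318 CPM elsewhere. Control replicate 3 held little of the 10 oocyte markers, 60.9 CPM against 799 to 1098 CPM in the other libraries. Foxl2, which marks granulosa cells, was present in every library.

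Short sequences of 2 kinds show what the genes carry at their annotated starts, since TOP stretches and E-boxes are the elements through which mTOR and MYC are known to act on this pathway. They come from RefSeq (GRCm38.p6), which had at least 1 window of 250 bases before to 50 bases after the start for 27 of the 33 genes. The first set gives the first 20 bases of the transcript, where a C followed by at least 4 pyrimidines is in capitals. Polr1d, Npm3, Polr1c and Polr1a begin without one, while Rps6, Rpl35 and Fau, ribosomal protein genes, begin with one.
Polr1d, chr5:147077346-147077365, plus strand: gcgacaggtgagagcctatg
Npm3, chr19:45749546-45749565, minus strand: cgtttcagcatggcggccgg
Polr1c, chr17:46248026-46248045, minus strand: gacattcaagattgcgggag
Polr1a, chr6:71909053-71909072, plus strand: agcgcagtggaaaaacacat
Rps6, chr4:86857348-86857367, minus strand: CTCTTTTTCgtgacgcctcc
Rpl35, chr2:39005112-39005131, minus strand: CTCTTTCTCTCgaaccaggc
Fau, chr19:6057947-6057966, plus strand: CTTCCTCTTTCTTgactcca

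A TOP stretch in this sense stood at a start of 0 of 27 genes of the list, of 14 of 58 ribosomal protein genes (24.1%), and of 2.98% of the 8816 tested genes with a window. Annotated starts can lie some bases from the true one, so the absence of a match says only that these letters are not there. The second set gives the E-box CACGTG, the same on both strands, in capitals with the bases around it, for each match in the list.
Pes1, chr11:3963965-3963994, plus strand: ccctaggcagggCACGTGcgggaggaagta
Nop2, chr6:125131811-125131840, plus strand: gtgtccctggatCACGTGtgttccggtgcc
Rrn3, chr16:13780472-13780501, plus strand: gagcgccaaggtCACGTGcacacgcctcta
Rrn3, chr16:13780639-13780668, plus strand: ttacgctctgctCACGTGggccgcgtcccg
Mybbp1a, chr11:72441355-72441376, plus strand: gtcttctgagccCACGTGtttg

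The E-box stood in a window of 4 of the 27 genes (14.8%) and of 11.8% of the tested genes with a window. It stood in 20.7% of 121 ribosome biogenesis factors outside the list and in 10.3% of 58 ribosomal protein genes. The ETS motif CCGGAAG, searched on both strands, stood in a window of 9 of the 27 genes (33.3%) and of 20.5% of the tested genes. Its share was 44.6% in the factors outside the list and 41.4% in the ribosomal protein genes. The 4 genes with an E-box had log2 fold changes of 0.39 (Pes1), 0.27 (Nop2), 0.00 (Rrn3) and 0.01 (Mybbp1a).

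As a group the 33 genes were moderately higher with INK128, and less so than the ribosomal protein genes, by a gap between the medians of 1.13 on the log2 scale that fell to 0.65 and 0.54 in fits with offsets for exon and coding length. Their log2 fold changes (INK128 over control, edgeR, given below with the standard error, SE, where a test is described) had a median of 0.35 and ranged from −0.49 to 1.31, with 28 above 0. The median over all 11758 tested genes was −0.03. Both INK128-treated rOvaries lay above both controls for 19 of the 33 genes, below them for 2, and overlapped them for 12. Over all tested genes, 34.5% lay above and 34% below.

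Upregulated genes were called at an adjusted p below 0.05 in edgeR's quasi-likelihood test (Benjamini-Hochberg over all tested genes) and a fold change above 1.5. By this rule 1 of the 33 genes, Polr1d, was upregulated and 0 were downregulated. Of all tested genes, 3.18% were called up and 3.19% down, so the count in the list was no larger than the background. At an unadjusted p below 0.05, 12 genes of the list (36.4%) had a positive and 1, Polr1a, a negative log2 fold change, beside 17.7% and 18.7% of all tested genes. The same 11758 genes tested with DESeq2 gave 9 upregulated members (27.3%) and 0 downregulated, beside a background of 13.6% up and 15.1% down. With limma voom, 0 members and 0 genes of any kind were called, although an unadjusted p below 0.05 was reached by 2151 genes with a rise and 1828 with a fall. Adjusted p-values in edgeR did not go below 0.0464 for any gene, and an exact permutation test of 2 against 2 libraries cannot give a two-sided p below 0.333.

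Cytosolic ribosomal protein genes, the building blocks that the factors assemble, gave a different picture. All 79 lay higher in both INK128-treated rOvaries, 67 were called in edgeR, and their median log2 fold change was 1.48, from 0.94 (Rpl4) to 2.15 (Rps27a). Rplp0, of the ribosomal stalk, had 3082 and 3728 CPM with INK128 and 1452 and 1303 CPM in controls. Only 4 of the 33 genes, Npm3, Polr1d, Fbl and Polr1c, exceeded the lowest of the ribosomal protein genes, and 0 exceeded their median.

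**Figure D1:**
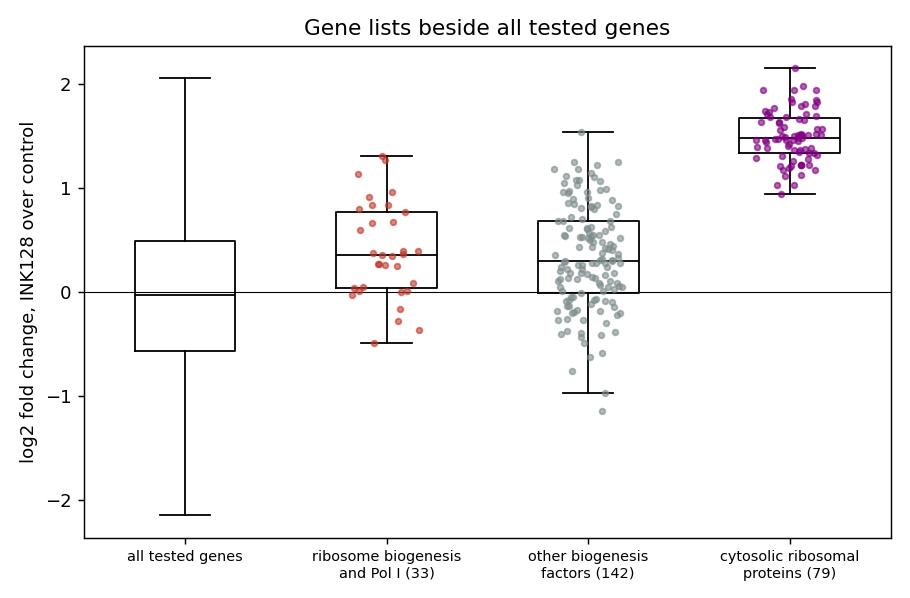
Log2 fold change of INK128 over control (vertical axis, edgeR) for 4 groups of genes along the horizontal axis. Boxes span the quartiles with the median as a line, whiskers reach the last value within 1.5 times the box height, and points are single genes (not drawn for all tested genes). The 33 ribosome biogenesis and Pol I genes center on 0.35 and the 142 other biogenesis factors on 0.30, between all tested genes at −0.03 and the ribosomal protein genes at 1.48.

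The summed level showed the same separation library by library. The 33 genes together made up 3616 and 3502 CPM with INK128, compared with 2786 and 2486 CPM in controls, a 1.35-fold difference of the means. Without Ncl and Npm1, the most abundant members, the fold was 1.29. The 79 ribosomal protein genes summed to 100400 and 106000 CPM with INK128 and to 38890 and 36550 CPM in controls, a 2.74-fold difference. Ribosomal protein counts were therefore 27.8 and 30.3 times those of the 33 genes with INK128, and 14.0 and 14.7 times in controls, and these ratios did not overlap between the groups. In bulk tissue, fewer cells of a type and less RNA per cell cannot be told apart.

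Markers of other cells moved with the same contrast. Of 16 kidney markers 14 were lower in both INK128-treated rOvaries, and their sum was 139 to 263 CPM with INK128 and 894 to 1889 CPM in controls (Slc12a1 at 0 counts in 1 library). Of 12 immune cell markers 9 were lower, with sums of 406 to 447 CPM against 872 to 1279 CPM. The 8 granulosa cell markers summed to 6056 to 7922 CPM against 3117 to 4883 CPM, with 3 higher, 1 lower and 4 overlapping. Most of this sum was a single gene, Inha, at 4177 and 6053 CPM against 1726 and 2936 CPM. Of the 10 oocyte markers 8 were higher, and they summed to 807 to 1098 CPM against 60.9 to 799 CPM. The 6 erythroid markers summed to 93.8 to 100.2 CPM against 22.9 to 58.4 CPM, with 3 higher, 1 lower and 2 overlapping. The part of these cells in the differences of the 33 genes was not tested.

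**Figure D2:**
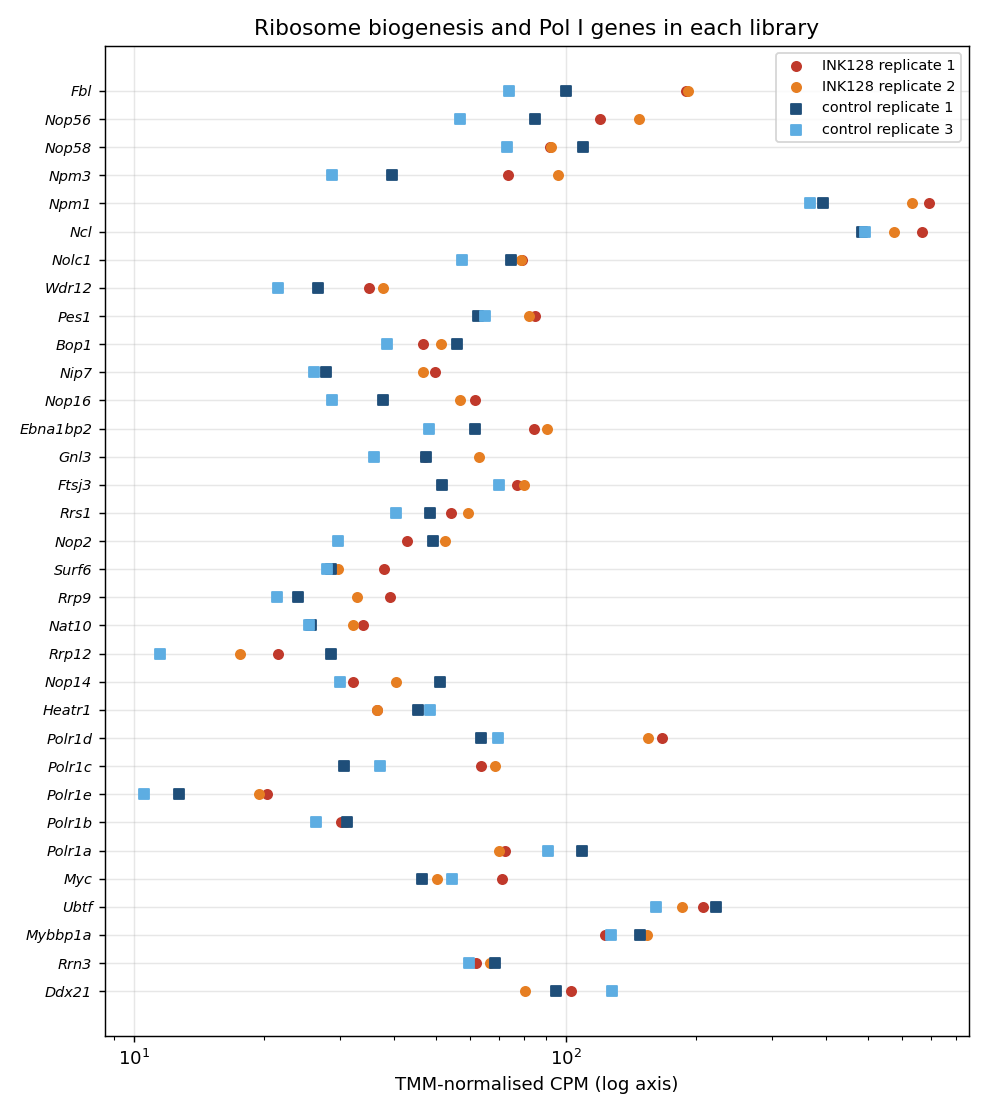
TMM-normalised CPM of each of the 33 genes (rows, ordered by role as in the text and by change within a role) in each library, on a log horizontal axis. Circles are the 2 INK128-treated rOvaries and squares the 2 controls. Circles lie to the right of both squares for 19 genes and to the left of both for 2, Heatr1 and Polr1a.

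Among the subunits of Pol I, the enzyme that transcribes rRNA, small subunits had larger values with INK128 in both treated rOvaries and the largest subunit smaller ones, with 1 of the 5 genes called. Polr1d encodes a small subunit that Pol I shares with Pol III. The treated rOvaries had 167 and 155 CPM of it, and the controls 63.5 and 69.8 CPM. These values did not overlap, the means were 161 ± 8.05 CPM (SD, n = 2) and 66.7 ± 4.42 CPM (SD, n = 2), and the log2 fold change was 1.27 (SE 0.167, edgeR adjusted p = 0.0464). The call was lost with offsets for exon length (1.09, edgeR adjusted p = 0.0861) or coding length (0.76, edgeR adjusted p = 0.0996), with genes kept at a mean CPM above 1 (edgeR adjusted p = 0.0555), with limma voom (adjusted p = 0.0599) and without either INK128 library.

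Polr1c encodes the partner of POLR1D, with which it forms a heterodimer in the enzyme. It had 63.7 and 68.5 CPM with INK128 and 30.6 and 37.2 CPM in controls. The groups did not overlap, but a log2 fold change of 0.96 (SE 0.194) missed the threshold narrowly in edgeR, at an adjusted p of 0.0529. Polr1e, which encodes an initiation subunit, was at 20.3 and 19.5 CPM with INK128 and at 12.7 and 10.6 CPM in controls (log2 fold change 0.77, edgeR adjusted p = 0.115).

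Polr1a and Polr1b encode the large subunits that hold the catalytic center. Polr1a had 72.4 and 70.0 CPM with INK128 and 109 and 90.8 CPM in controls. Both treated rOvaries thus lay below both controls, and the change on the log2 scale was −0.49 (SE 0.178, edgeR adjusted p = 0.128), a direction that turned with offsets for exon length (0.08) or coding length (0.16) in each library. A noncoding gene on the opposite strand, Gm26628, shares 185 exon bases with Polr1a, which are 1.56% of the exon bases of Polr1a. Gm26628 was lower as well, with 1.71 and 1.23 CPM against 7.32 and 6.80 CPM. Since use of strand in the counting was not stated, reads of the shared stretch cannot be assigned to either gene. Polr1b overlapped between groups, with 30.2 and 30.9 CPM against 31.1 and 26.5 CPM (log2 fold change 0.09).

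Over the 13 subunits of Pol I that were measured, those in the list together with the remaining ones, 12 had a log2 fold change above 0, 10 were past 1.5-fold upward, and 2, Polr1d and Polr2f, were called. Over all tested genes the shares were 48.6%, 21.2% and 3.18%. The remaining 8 were Polr2e (0.98), Polr2f (1.25, adjusted p = 0.0488 in edgeR), Polr2h (0.82), Polr2k (1.18) and Polr2l (0.68), which serve all nuclear polymerases, and Znrd1 (1.12), Cd3eap (0.80) and Twistnb (0.10), which belong to Pol I. Ordered by coding length, the 7 shortest, from Polr2l to Polr2e with 201 to 630 bases, ran from 0.68 to 1.27, and the 2 longest, Polr1b with 3405 and Polr1a with 5151 bases, stood at 0.09 and −0.49.

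The transcription factors and regulators of rRNA synthesis did not separate the groups. Ubtf, which encodes the architectural factor UBF of the rRNA genes, had 208 and 186 CPM with INK128 and 222 and 162 CPM in controls. Rrn3, which encodes TIF-IA, the factor that couples Pol I to growth signals including mTOR, had 61.9 and 66.8 CPM against 68.6 and 59.8 CPM. For both genes the controls spanned the treated rOvaries, and the log2 fold changes were 0.04 and 0.00.

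Myc, the transcription factor that drives much of this program, had 71.2 and 50.2 CPM against 46.4 and 54.5 CPM, so that 1 treated rOvary exceeded both controls and the other lay between them. Its log2 fold change was 0.27 (SE 0.244, edgeR adjusted p = 0.462). Mybbp1a, which encodes a nucleolar MYB-binding protein, stood at 0.01. Ddx21, which encodes an RNA helicase linked to Pol I transcription and rRNA processing, stood at −0.28 (means of 91.6 ± 15.6 CPM with INK128 and 111 ± 23.6 CPM in controls, SD, n = 2). All 5 genes of this role overlapped between the groups, 0 of them passed an unadjusted p below 0.05, and their median log2 fold change was 0.01.

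**Figure D3:**
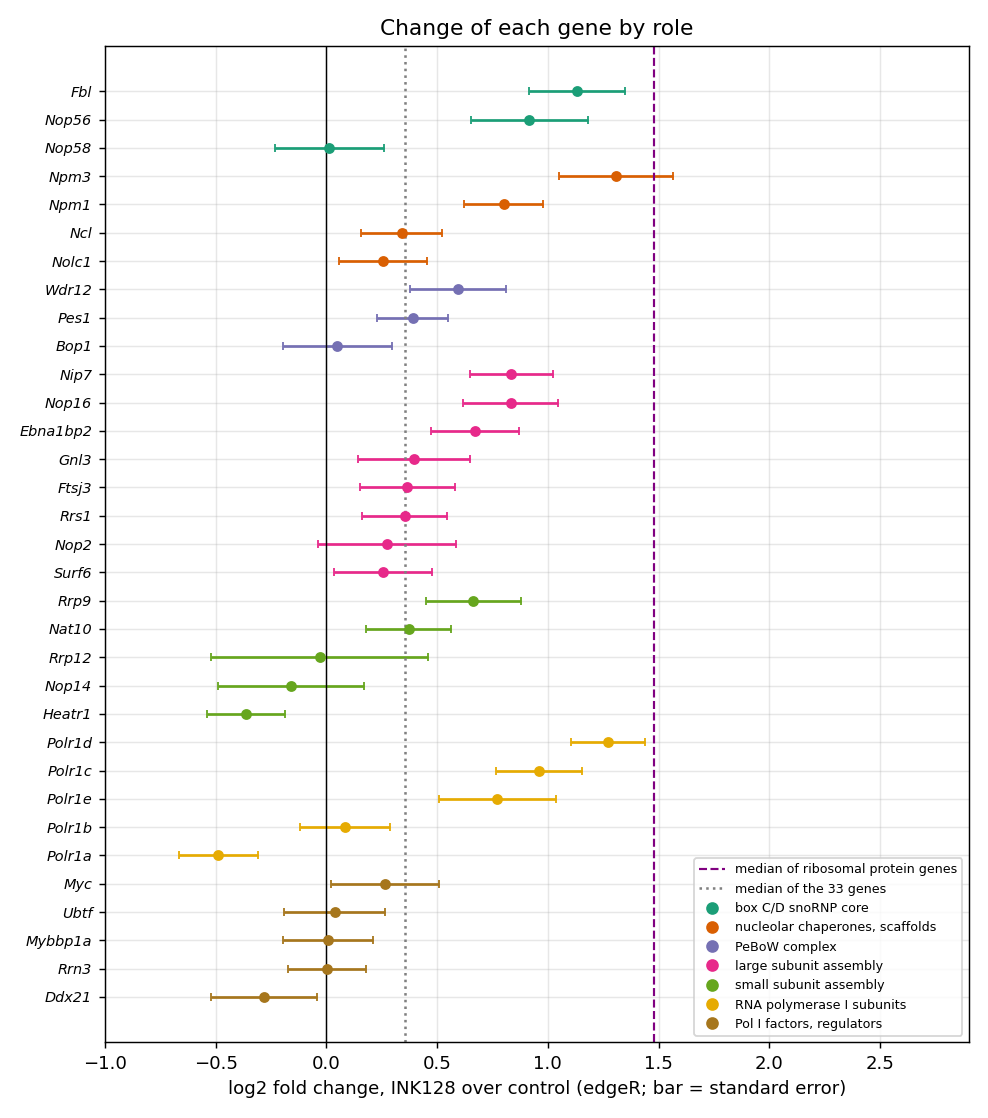
Log2 fold change of INK128 over control (horizontal axis, edgeR) for each of the 33 genes, with bars for 1 standard error and colors for the role. The dotted line marks the median of the 33 genes at 0.35 and the dashed line the median of the ribosomal protein genes at 1.48. Within the Pol I subunits the values spread from −0.49 to 1.27, and the 5 Pol I factors and regulators lie from −0.28 to 0.27.

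The core of the box C/D small nucleolar RNPs, which guide methylation of rRNA, was uneven. Fbl encodes fibrillarin, the methyltransferase, and had 189 and 191 CPM with INK128 and 99.96 and 73.8 CPM in controls. Both treated rOvaries were above both controls, and the log2 fold change was 1.13 (SE 0.216, edgeR adjusted p = 0.0516). Nop56, a scaffold protein of the same particle, had 120 and 148 CPM against 84.8 and 57.0 CPM (log2 fold change 0.92, edgeR adjusted p = 0.0868).

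Nop58, the partner of NOP56 in the particle, had 91.7 and 92.6 CPM with INK128 and 109 and 73.2 CPM in controls. Its treated values lay between the controls, with a log2 fold change as small as 0.01 (SE 0.245). Fbl and Nop56 were thus near 2-fold higher on average (2.19 and 1.89) while Nop58 was at 1.01, a contrast between genes of 1 particle for which no test was run. With offsets for exon length the log2 fold changes were 1.16 (Fbl), 0.93 (Nop56) and 0.54 (Nop58). With offsets for coding length the contrast stayed, with Nop58 at 0.16 and both Fbl (1.001) and Nop56 well above it. Nop58 ran from −0.25 to 0.33 when 1 library was left out. The box H/ACA core, which guides pseudouridylation and is not in the list, gave log2 fold changes of 0.33 (Dkc1), 0.85 (Gar1), 1.22 (Nhp2) and 1.25 (Nop10), and of these Nhp2 was called.

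Nucleolar chaperones and scaffolds were all higher in both treated rOvaries, by unequal amounts. Npm3, which encodes a histone chaperone of the nucleophosmin family, had a log2 fold change of 1.31 (SE 0.258, edgeR adjusted p = 0.0521). This was the largest in the list with all 4 libraries and no offsets. With offsets for exon and coding length Npm3 stood at 0.78 and 0.89, below Fbl in both. It was below Polr1d with offsets for GC content, and without INK128 replicate 2 (1.09 against 1.31). Npm3 had 73.4 and 96.0 CPM with INK128 and 39.6 and 28.8 CPM in controls. An antisense gene, Gm15491, shares 7.08% of the exon bases of Npm3, the largest share in the list, and had a log2 fold change of 0.22.

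Npm1 encodes nucleophosmin, which organises the granular part of the nucleolus, and had 693 and 633 CPM against 394 and 367 CPM. The groups did not overlap, and the log2 fold change was 0.80 (SE 0.178, edgeR adjusted p = 0.0591). Processed pseudogenes of Npm1 exist in the mouse genome, so its share of reads is uncertain. Ncl, which encodes nucleolin, and Nolc1, a chaperone of small nucleolar RNPs, stood at 0.34 (665 and 573 CPM against 484 and 493 CPM) and 0.26 (79.3 and 78.6 CPM against 74.8 and 57.5 CPM).

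Genes for assembly of the large subunit were mostly higher. The PeBoW complex, which processes the precursor of the large rRNAs, showed Wdr12 at 0.59 and Pes1 at 0.39, each higher in both treated rOvaries, and Bop1 at 0.05, where 46.7 and 51.3 CPM with INK128 fell between 56.0 and 38.6 CPM in controls. Of the 8 further large subunit factors all had a log2 fold change above 0, and 3 were past 1.5-fold. Among these factors 6 lay higher in both treated rOvaries, beside 34.5% of all tested genes. Nip7, which encodes a small factor that binds pre-ribosomes, had 49.8 and 46.6 CPM against 27.9 and 26.1 CPM. Its groups were well apart relative to the spread within them, and the log2 fold change was 0.84 (SE 0.186, edgeR adjusted p = 0.0592).

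Nop16 (0.83, with 61.5 and 56.8 CPM against 37.6 and 28.8 CPM) and Ebna1bp2 (0.67, with 84.3 and 90.6 CPM against 61.4 and 48.3 CPM) were the other 2 past 1.5-fold. Gnl3, which encodes nucleostemin, a GTPase of proliferating cells, stood at 0.40 with overlapping groups (47.1 and 62.8 CPM against 47.5 and 36.0 CPM). Ftsj3, a methyltransferase of pre-rRNA, stood at 0.36, Rrs1, which helps to bring the 5S RNP into pre-ribosomes, at 0.35, the rRNA methyltransferase gene Nop2 at 0.27 and Surf6, a nucleolar matrix protein gene, at 0.25. Ftsj3, Rrs1 and Surf6 were higher in both treated rOvaries and Nop2 overlapped, and Rrs1 turned to −0.01 with offsets for exon length.

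Small subunit factors were mixed, with 2 of the 5 genes above and 3 below 0. Their median of −0.03 was the value of Rrp12, which turned with the choice of control. These 5 genes had a median of 3072 coding bases, against 1080 for the 8 further large subunit factors. With offsets for coding length the 5 ran from 0.20 (Nop14) to 0.81 (Nat10), and the 8 from 0.17 (Surf6) to 0.72 (Ftsj3). Rrp9, which encodes the U3 snoRNP protein, was higher, with 39.1 and 32.9 CPM against 24.0 and 21.5 CPM and a log2 fold change of 0.66 (edgeR adjusted p = 0.105). Nat10, the cytidine acetyltransferase of small subunit rRNA, was at 34.0 and 32.1 CPM against 25.7 and 25.4 CPM (0.37). Both genes lay above the controls in each treated rOvary, without passing the threshold.

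Heatr1, which encodes a large protein of the complex that joins Pol I transcription to early processing, had 36.5 and 36.5 CPM with INK128 and 45.5 and 48.4 CPM in controls. It was the second gene of the list, beside Polr1a, with both treated rOvaries below both controls, and its log2 fold change was −0.36 (SE 0.176, edgeR adjusted p = 0.204), which turned to 0.03 with offsets for exon length and 0.38 with offsets for coding length. Nop14, of the small subunit processome, stood at −0.16 (32.1 and 40.5 CPM against 51.2 and 29.9 CPM), and was 0.28 without control replicate 1 and −0.49 without control replicate 3.

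Rrp12, an export and maturation factor, also depended on which control was used. It had 21.6 and 17.6 CPM with INK128, and 28.6 CPM in control replicate 1 against 11.5 CPM in control replicate 3. Its log2 fold change was −0.03 with both, 0.77 without control replicate 1 and −0.54 without control replicate 3. It was the only member whose controls lay more than 2-fold apart.

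The controls differed from each other in the direction of the list. Control replicate 1 was above control replicate 3 for 25 of the 33 genes (75.8%), with a median difference of 0.26 on the log2 scale, while it was above for 49.0% of all tested genes. The median absolute gap between replicates was 0.28 on the log2 scale for controls and 0.11 for the INK128-treated rOvaries. Without control replicate 1, the library with Y-linked and Sertoli cell transcripts, the median log2 fold change of the list was 0.46 and 15 members were upregulated in edgeR. Without control replicate 3, the library with few oocyte transcripts, the median was 0.36, 10 members were upregulated and 1, Polr1a, was downregulated. In these fits 1 control stands alone and is assumed to vary like the treated pair, and all gene counts rose too, to 2664 up and 2723 down and to 2493 up and 2518 down. Without INK128 replicate 1 or 2, 0 members and 0 genes were called, although 751 and 639 genes were higher at an unadjusted p below 0.05.

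Within the list, short genes were higher and long genes were not. Across the 33 genes the log2 fold change and the length of the longest annotated coding sequence (log2) had a Pearson r of −0.841 and a Spearman rho of −0.809, given as a description because the genes share the same 4 libraries. The 11 shortest, with 399 to 1269 coding bases, ran from 0.25 to 1.31 with a median of 0.83, and all 11 lay higher in both treated rOvaries. The 11 in the middle, with 1362 to 2196 bases, had a median of 0.34 and 6 lay higher in both. The 11 longest, with 2292 to 6429 bases, had a median of 0.01, ran from −0.49 to 0.37, and 2 lay higher in both. Over all tested genes the share higher in both was 34.5%.

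The relation was not particular to the list. It was −0.733 over 141 other ribosome biogenesis factors, −0.570 over the 79 ribosomal protein genes and −0.353 over 11016 tested genes (Pearson r). With exon length in place of coding length the relation was weaker. Pearson r was then −0.530 over the 33 genes, −0.595 over the 141 factors, −0.207 over the ribosomal protein genes and −0.314 over 11700 tested genes. Ribosomal protein genes are short, with a median of 456 coding bases against 1740 in the list.

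**Figure D4:**
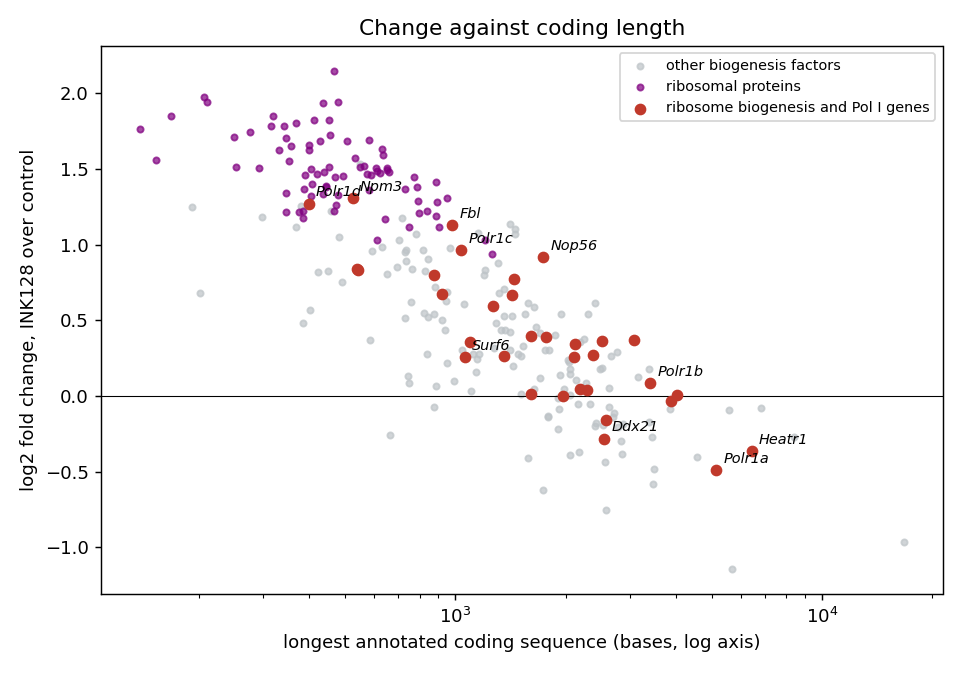
Log2 fold change of INK128 over control (vertical axis, edgeR) against the length of the longest annotated coding sequence (horizontal axis, bases, log scale). Red points are the 33 ribosome biogenesis and Pol I genes, some of them named, gray points other biogenesis factors and purple points ribosomal protein genes. Red points fall from 1.27 for Polr1d at 399 bases to −0.49 for Polr1a at 5151 bases and −0.36 for Heatr1 at 6429 bases.

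Fits with an offset for length in each library removed the smooth part of this relation. With offsets for coding length, chosen after the data were seen, all 33 log2 fold changes were above 0, with a median of 0.54 beside 1.08 for the ribosomal protein genes and 0.07 for all tested genes. The 5 members below 0 (Polr1a, Heatr1, Ddx21, Nop14 and Rrp12) then stood at 0.16, 0.38, 0.08, 0.20 and 0.49. In this fit 0 genes of any kind were called, while 1780 genes above 0 and 1513 below 0 had an unadjusted p under 0.05. With offsets for exon length the medians were 0.41 for the list and 1.07 for the ribosomal protein genes. The part of RNA quality or library preparation in the relation with length was not tested.

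The wider set of biogenesis factors outside the list behaved in a like way. Of 142 further factors all were tested, 106 had a log2 fold change above 0, the median was 0.30, and 4 were upregulated in edgeR (Eif6, Mrto4, Nhp2 and Polr2f), none downregulated at this threshold, while 42 above 0 and 4 below 0 had an unadjusted p under 0.05, beside 17.7% and 18.7% of all tested genes. The called genes were 2.82% of these factors, beside the background of 3.18%. With DESeq2, 33 were up and 3 down.

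The extremes of these factors had coding sequences of 381 bases (Polr2f), 192 bases (Nop10) and 552 bases (Imp3) at the upper end, and of 2577 bases (Ttf1), 5670 bases (Baz2a) and 16767 bases (Mdn1) at the lower end. Imp3, which encodes a U3 snoRNP protein, had the largest value, 1.54 (131 and 105 CPM against 30.5 and 50.9 CPM, edgeR adjusted p = 0.0540), followed by Polr2f and Nop10. The lowest were Baz2a, which encodes a silencing factor of rRNA genes, at −1.14 (44.6 and 42.0 CPM against 80.0 and 111 CPM), Mdn1, the giant AAA ATPase of large subunit maturation, at −0.96, and Ttf1, the terminator of Pol I transcription, at −0.76. All 6 had both treated rOvaries on 1 side of both controls. Their choice as the extremes in these same libraries favors this, so it adds no support. Over all tested genes, 34.5% lay above both controls and 34% below. Factors of the rRNA exosome and trimming had a median of 0.62 over 16 genes. It was above the 0.21 of 56 large subunit and the 0.28 of 51 small subunit factors. It was below the 0.71 of 15 Pol I machinery genes and the 1.04 of the 4 box H/ACA genes. Median coding lengths were 828 bases (exosome and trimming), 1671 (large subunit), 1641 (small subunit), 966 (Pol I machinery) and 576 (box H/ACA).

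The members Nop56, Nop58, Ncl and Gnl3, hold 15 annotated small nucleolar RNA genes in their introns, and their log2 fold changes of 0.92, 0.01, 0.34 and 0.40 covered much of the range of the list. The libraries were made from poly(A) RNA, so the levels of these guide RNAs were not measured. Exon bases were shared with a gene on the opposite strand in 11 of the 33 members, in each by less than 10% of their exon bases.

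Under scaling by library totals, without TMM factors, the median of all tested genes moved from −0.03 to −0.16 and that of the 33 genes from 0.35 to 0.22, and 22 members were above 0. Relative to the median of all tested genes the list stood 0.38 higher under both scalings. The 6 members that turned negative, Nop58, Bop1, Polr1b, Ubtf, Rrn3 and Mybbp1a, had been within 0.09 of 0, and none of the members named here as higher in both treated rOvaries was among them. Over all 15 alternative fits, 19 members remained above 0 in each.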

How the data were processed

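Groups and replicate numbers of the 4 libraries came from the labels. Per the labels and the study's methods, the authors used Trimmomatic for trimming, HISAT2 for alignment to mm10 and featureCounts for counting (versions and strand setting not given in the sources used here). The deposited values are raw counts of reads by gene symbol, neither normalized nor pooled. From these, CPM with TMM factors were computed (edgeR 4.0.16, R 4.3.3), and the 11758 genes with a mean CPM above 10 were tested with edgeR's quasi-likelihood test and Benjamini-Hochberg adjustment. Log2 CPM for replicate gaps used a pseudocount of 0.5. DESeq2 1.42.0, limma 3.58.1 (voom) and other settings were alternatives, and the tests were tested on simulated data. Lengths, overlaps and GC content came from GENCODE M21 (mm10), which matched 53447 of 54021 symbols, while the study names RefGene as the annotation used for counting, so lengths and overlaps may differ from the gene models counted. Length offsets were splines with 4 degrees of freedom fitted in each library.

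The 33 genes and all lists were chosen with earlier results of these data known. Named genes were all 33 members, the box H/ACA core, the 3 largest and 3 smallest log2 fold changes among the 142 further factors, Rplp0, Rps6, the highest and lowest ribosomal protein genes, and genes that overlap a named member. Other genes of Pol I, the called factors and the genes whose starts are printed were named after their values were seen. Floors cover counting error only, and standard errors come from the fitted dispersion between libraries.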

Additional observations from a re-analysis of the deposited data

How the results depend on the processing

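No paired analysis was possible because the groups share only replicate number 1. Counts below are of genes called up and down, and the cause of each change was not tested unless stated. DESeq2 gave 1595 and 1772 genes, 9 members up, and 33 and 3 further factors. Limma voom, a mean CPM above 1, and offsets for exon or coding length gave 0 genes, members, ribosomal protein genes or factors. A CPM above 10 in all 4 libraries gave 803 and 717 genes, 5 members up, and 16 and 1 factors, and keeping every gene with at least 1 count gave 1152 and 1953 genes, 6 members up, and 18 and 1 factors. Library totals gave 627 genes down, 1 and 1 factors, and medians of 0.22 (members), 1.34 (ribosomal proteins) and 0.17 (factors). Offsets for GC content gave 234 genes down and 2 factors up. The median of ribosomal proteins was 1.07 with exon length and 1.08 with coding length offsets, where that of members was 0.54.

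Leaving out each library in turn gave 0 to 2664 genes up and 0 to 2723 down, 0 to 15 members up and 0 to 1 down, 0 to 79 ribosomal protein genes up, 0 to 58 factors up and 0 to 5 down, 21 to 30 members above 0, and medians of 0.36 to 0.46 (members), 1.44 to 1.53 (ribosomal proteins) and 0.16 to 0.45 (factors). The low counts of calls came without an INK128 library and the high ones without a control, and the 21 members above 0 came without control replicate 3. Rrp12 turned from −0.03 to 0.77 and was called without control replicate 1 (edgeR adjusted p = 0.0391), and stood at −0.54 without control replicate 3. Polr1d, the called member, was not called with limma voom, a mean CPM above 1, either length offset or either INK128 library left out. Each member had at least 244 counts in every library.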
